A study of Mus musculus with 2 samples.

Results

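The genes of the DNA replication machinery and of S phase were followed in Th17 cells with and without *Fak*. They comprised 53 genes, named from their known roles in origin licensing, helicase loading, DNA synthesis, chromatin assembly and E2F control, out of 23282 gene rows in the deposited tables. These genes and the lists set beside them were chosen with earlier results of these data known. All 53 were found, each on 1 row, and all 53 passed the expression minimum of 15 normalized reads in at least 1 library. Naïve CD4 T cells from the spleens of *Fak* fl/fl mice had been activated on anti-CD3ε fixed to the plate at 10 μg/ml, with anti-CD28 in solution at 5 μg/ml, transduced with the control retrovirus MIEG3 or with RV-Cre, and kept for 3 days with IL-6 (50 ng/ml), TGFβ1 (1 ng/ml), TNFα (1 ng/ml), IL-1β (2 ng/ml) and antibodies to IFNγ and IL-4 (5 μg/ml each). Cre removes the floxed part of *Fak* and is made from the retrovirus itself, so that Cre expression and loss of *Fak* cannot be told apart here, a Cre library from cells with unfloxed *Fak* being not analysed here. GFP+ cells had been sorted, and each QuantSeq library was made from 500 ng of RNA, a 3′ tag type in which reads gather at the end of a transcript. The genotype field of the control reads WT although its title names floxed cells, and the title was followed.

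There was 1 library per condition, with 13799264 counted reads for control and 12305010 for RV-Cre, so differences between them cannot be set against a spread of replicates and carry no p-values. Ratios are of TMM-normalized reads, RV-Cre over control, with exact Clopper-Pearson 95% intervals that hold the error of counting alone and speak of this pair of libraries. Log2 ratios have 1 added to each normalized count. *Ptk2*, the symbol of *Fak* (chr15:73205102-73423280 on GRCm38, minus strand), had 110 reads in control and 31 in RV-Cre, a ratio of 0.318 (95% interval 0.206 to 0.477), although a 3′ tag need not lie in the deleted part. All 7 T cell markers followed had reads, and their sum was 1449 CPM (reads scaled to equal library totals) in control and 2132 CPM in RV-Cre. The Th17 markers were lower in RV-Cre for 4 of 5 genes, with a sum of 152 CPM against 53.1 CPM, and *Il17a* had 424 reads in control and 103 in RV-Cre. Markers of other cells were also followed. The sums in control and RV-Cre were 33.0 and 70.1 CPM for the 4 CD8 and NK markers (3 of 4 higher in RV-Cre), 3.04 and 8.78 CPM for the 4 B cell markers (3 of 4 higher), 4.28 and 12.1 CPM for the 5 myeloid markers (3 of 5 higher), and 2.39 and 14.7 CPM for the erythroid markers (2 higher). *Ncr1* and *Adgre1* were at 0 in control and *Klrb1c* at 0 in RV-Cre. The ribosomal RNA gene *Rn45s* held 8.50% of control and 14.6% of RV-Cre reads. The part of these differences in the results was not tested.

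DNA is copied once per cell cycle. In G1 phase the origin recognition complex, with Cdc6 and Cdt1, loads the ring of Mcm2 to Mcm7 onto DNA, and at the start of S phase the kinases Cdc7-Dbf4 and cyclin E-Cdk2 turn it into an active helicase with Cdc45 and GINS. The genes for these proteins are classic targets of E2F transcription factors, and activated T cells, which divide fast after days of stimulation, express them at high levels. E2F proteins recognise letters of the form TTTNNCGC, with G or C at each N, in promoters close to the start of the gene.

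The E2F letters are shown here as a sequence feature that the rule for choosing the members did not use. However, the members include genes known as E2F targets, so a raised share of these letters is no independent result. RefSeq promoter windows on GRCm38.p6, from 250 bases before to 50 bases after an annotated start, were at hand for 43 of the 53 members. On either strand, 16 of these 43 (37.2%) held TTTNNCGC with G or C at each N, against 2.61% of the 27025 genes with a window and 4.80% of the 9154 such genes past the expression minimum. A list of other replication genes held the letters about as often, in 12 of 30 windows (40.0%), so that they are not particular to the members. Of the *Mcm* ring genes with a window, *Mcm3*, *Mcm5*, *Mcm6* and *Mcm7* held it and *Mcm2* did not. Stretches around the first match in these genes follow, 5′ to 3′ on the strand of the gene, with the E2F letters in capitals. *Cdc6* was added after its value was seen, as the member with these letters and the lowest ratio. The stretches of *Mcm3* (chr1:20820265-20820294, minus strand) and *Mcm7* (chr5:138172030-138172059, minus strand) are kept to 30 bases because they touch an annotated exon. Those of *Mcm5* (chr8:75109330-75109389, plus strand) and *Mcm6* (chr1:128359782-128359841, minus strand) lie before the gene. That of *Cdc6* (chr11:98907987-98908046, plus strand) lies before the RefSeq start of its window but within the gene as drawn by GENCODE M21, which begins at base 98907801, and touches no exon there.
Mcm3: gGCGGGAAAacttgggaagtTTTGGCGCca
Mcm5: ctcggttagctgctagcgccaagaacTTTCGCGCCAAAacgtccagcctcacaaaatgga
Mcm6: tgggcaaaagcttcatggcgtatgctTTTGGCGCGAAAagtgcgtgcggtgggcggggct
Mcm7: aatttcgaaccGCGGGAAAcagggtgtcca
Cdc6: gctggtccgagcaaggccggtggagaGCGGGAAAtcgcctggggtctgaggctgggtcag
In *Mcm5* and *Mcm6* the match on one strand overlaps a match on the other, so that a single run of 12 capitals holds both.

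Replication genes were lower in the RV-Cre library as a group. The 53 members took 0.853% of all reads in control (117759 reads, exact 95% interval 0.849% to 0.858%) and 0.409% in RV-Cre (50284 reads, 0.405% to 0.412%), a normalized ratio of 0.482. All 53 had fewer normalized reads in RV-Cre than in control, and 50 of 53 with counts scaled to *Gapdh*, where *Gins4*, *Pold1* and *Rfc2* were above 0. Over all 12112 genes past the minimum, 50.4% lay below 0. The median log2 ratio of the members was -1.17, with quartiles of -1.61 and -0.78, against a median of -0.01 for all genes. At least 2-fold lower were 28 of the 53 members (52.8%), against 12.3% of all genes past the minimum, and 0 were at least 2-fold higher, against 14.2% of all genes. Every member also passed the stricter minimum of 63 normalized reads in at least 1 library, among genes of which 11.0% were lower and 7.58% higher by 2-fold or more. For 24 members the whole counting interval lay below a ratio of 0.5, against 6.98% of all genes, and for *Rfc2* alone it included 1. Lower expression per cell and fewer cells in S phase cannot be told apart in bulk RNA.

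**Figure D1:**
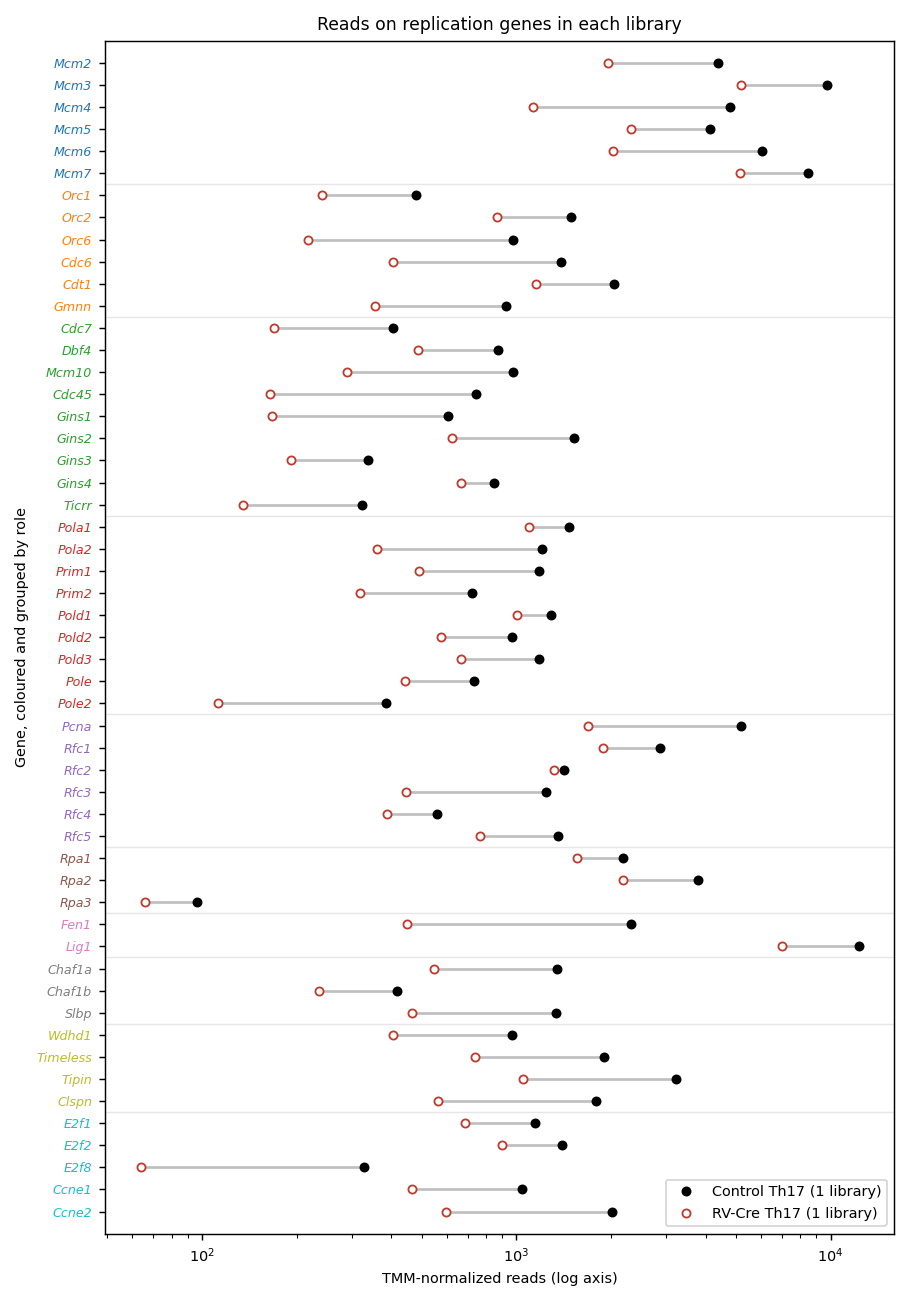
TMM-normalized reads (log axis) of the 53 replication genes in the control library (black, filled) and the RV-Cre library (red, open), 1 library each, with gene names grouped and coloured by role. The open point lies left of the filled point for all 53 genes, and for 50 of 53 if counts are scaled to *Gapdh*.

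The members of the *Mcm* ring, the core of the replicative helicase, did not share a common ratio. *Mcm4* (chr16:15623897-15637400, minus strand) had 5068 reads in control and 1062 in RV-Cre, a ratio of 0.236 (0.221 to 0.253), the lowest of the ring. *Mcm6* had 6440 and 1907 reads, a ratio of 0.334 (0.317 to 0.352). For *Mcm2*, with 4665 and 1840 reads, the ratio was 0.445 (0.421 to 0.470). These 3 subunits were at least 2-fold lower and the other 3 were not. *Mcm3* had 10333 and 4866 reads, a ratio of 0.531 (0.514 to 0.550), just inside the 2-fold line. *Mcm5* gave 4389 and 2175 reads and a ratio of 0.559 (0.531 to 0.589). *Mcm7* had 8981 and 4842 reads, a ratio of 0.608 (0.587 to 0.630), and shares 64 bases at its 3′ end with *Cops6* on the other strand. Among the 15 pairs of ring subunits, 13 had counting intervals that did not overlap, the exceptions being *Mcm5* with *Mcm3* and with *Mcm7*. The same was so for 71.2% of all pairs of members, so that it is not particular to the ring. The ratio of *Mcm7* was 2.57 times that of *Mcm4*, although the proteins form a ring with 1 copy of each.

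Licensing genes among the members divided into those near and those well past 2-fold lower. *Orc6*, the smallest subunit of the origin recognition complex, had 1034 reads in control and 204 in RV-Cre, a log2 ratio of -2.16. *Cdc6*, the ATPase that helps load the *Mcm* ring, had 1473 and 381 reads, a log2 ratio of -1.77. *Orc1*, the subunit that comes and goes with the cell cycle, had 511 and 226 reads, a ratio of 0.499 (0.425 to 0.585) and a log2 ratio of -0.9996, so that the 1 added to each count placed it just outside the called genes. *Orc2*, a stable subunit of the same complex, had 1585 and 815 reads, a log2 ratio of -0.78, and shares 686 bases of its last 1 kb with *Nif3l1*. The subunits *Orc3*, *Orc4* and *Orc5* are not members and had ratios of 0.798, 0.875 and 1.20. The loader *Cdt1* and its inhibitor geminin (*Gmnn*) are known for opposite phases, Cdt1 protein gathering in G1 and geminin in S, G2 and M. *Cdt1* had 2176 and 1091 reads, a log2 ratio of -0.82. *Gmnn* had 988 and 334 reads, a log2 ratio of -1.39. Both were lower in RV-Cre, *Gmnn* by more, and their counting intervals did not overlap.

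Of the 9 genes that fire licensed origins, 6 (66.7%) were at least 2-fold lower, with a median log2 ratio of -1.26. The share was 52.8% over all members and 12.3% over all genes past the minimum. *Cdc45*, which joins the *Mcm* ring to make the active helicase, was among the lowest of all members, with 792 reads in control and 155 in RV-Cre, a ratio of 0.221 (0.185 to 0.263). *Mcm10*, a firing factor that is not part of the ring, had 1033 and 272 reads, a log2 ratio of -1.75. *Ticrr* (treslin), which brings Cdc45 to origins, had 344 and 127 reads, a log2 ratio of -1.26, and shares 51 bases at its end with *Kif7*. The kinase *Cdc7* had 431 and 160 reads, a log2 ratio of -1.25. Its activating subunit *Dbf4* had 932 and 458 reads, a ratio of 0.555 (0.495 to 0.621), and the intervals of the pair overlapped. GINS, the 4-subunit partner of Cdc45, had the widest spread of ratios among the complexes when only member subunits were counted. *Gins1* had 642 and 157 reads (log2 ratio -1.85), whereas *Gins4* had 901 and 627 reads, a ratio of 0.785 (0.708 to 0.871), among the highest of the members. Between them lay *Gins2* with 1618 and 586 reads (log2 ratio -1.29) and *Gins3* with 358 and 180 reads (log2 ratio -0.81). None of the 6 pairs of GINS subunits had overlapping intervals, as was so for 71.2% of all pairs of members. However, the last 1 kb of *Gins2* lies within the antisense exons of *Gse1* (1644 and 761 reads). The strand used for counting is not given in the sources used here.

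**Figure D2:**
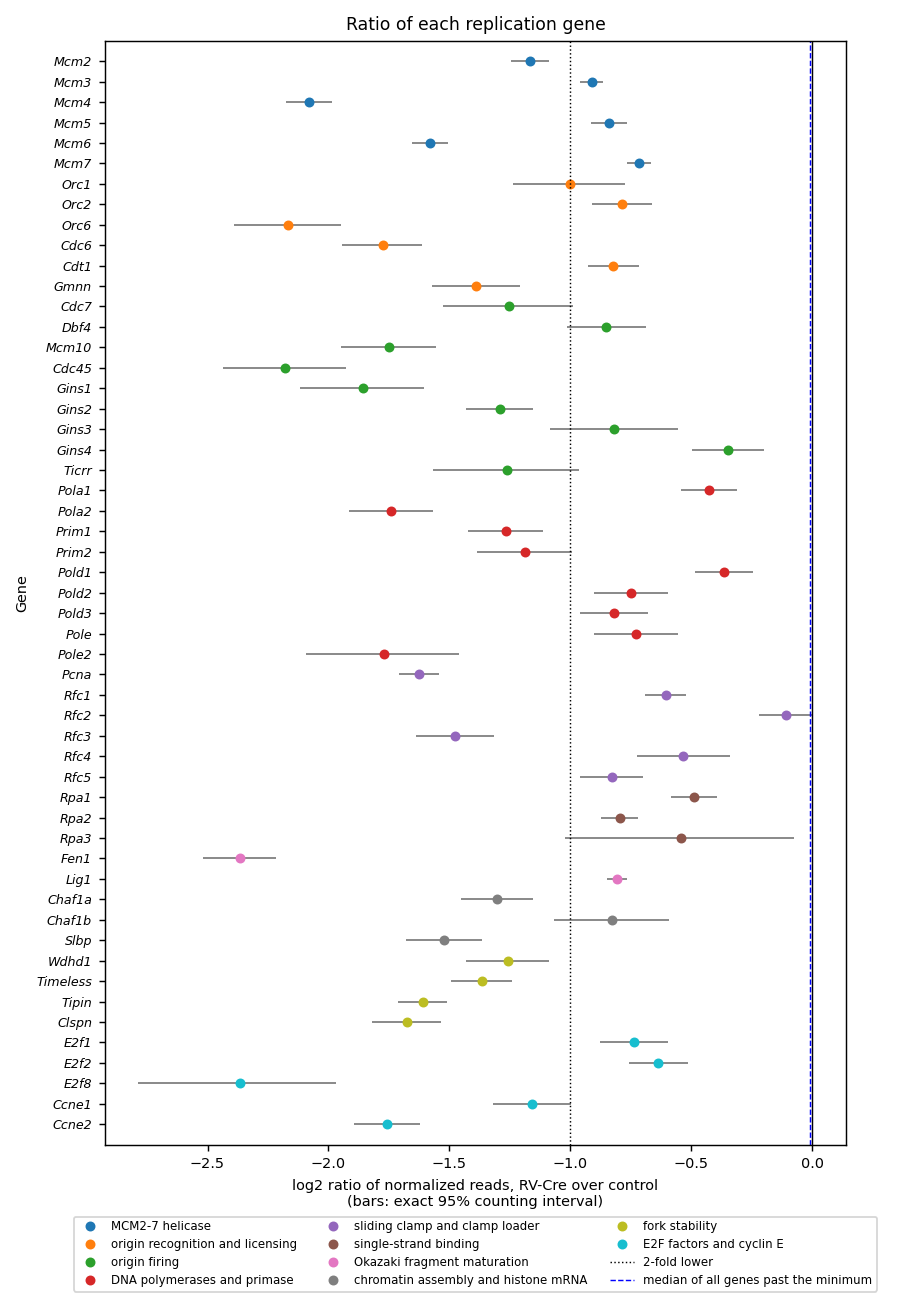
Log2 ratio of normalized reads, RV-Cre over control, of each replication gene with its exact 95% counting interval (bars), a dotted line at 2-fold lower and a dashed line at the median of all genes. The points run from a ratio of 0.194 for *E2f8* and *Fen1* to 0.928 for *Rfc2*, and subunits of the *Mcm* ring, GINS and RFC spread over much of this range.

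The DNA polymerases were among the less reduced groups, with 4 of 9 genes (44.4%) at least 2-fold lower and a median log2 ratio of -0.82. Over all members this share was 52.8%, and over all genes past the minimum 12.3%. In polymerase alpha-primase, which starts each new strand with a short primer, the catalytic subunit *Pola1* had 1564 reads in control and 1031 in RV-Cre, a log2 ratio of -0.43. Its regulatory subunit *Pola2* had 1278 and 339 reads, a log2 ratio of -1.74. The primase subunits lay between these, *Prim1* with 1252 and 461 reads (log2 ratio -1.27) and *Prim2* with 769 and 299 reads (log2 ratio -1.19). Polymerase epsilon, which extends the leading strand, showed a like contrast. Its catalytic subunit *Pole* had 779 and 417 reads, a log2 ratio of -0.73. The accessory subunit *Pole2* had 408 and 106 reads, a log2 ratio of -1.76. Polymerase delta, the lagging-strand enzyme, stayed within 2-fold. *Pold1*, its catalytic subunit, had 1373 and 946 reads, a ratio of 0.778 (0.715 to 0.845). The accessory subunits *Pold2* (1029 and 543 reads) and *Pold3* (1251 and 629 reads) had log2 ratios of -0.75 and -0.82. The polymerase subunit that builds the strand thus had the highest ratio among the member subunits of all 3 polymerases, a pattern noticed after the values were known and without a replicate. It did not hold for polymerase epsilon once subunits that are not members were added. There *Pole3* had a ratio of 0.692 and *Pole4* of 0.907, against 0.604 for *Pole*.

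*Pcna*, the sliding clamp that holds polymerases on DNA, had 5529 reads in control and 1588 in RV-Cre, a log2 ratio of -1.62. Its loader RFC, which opens the clamp, was less reduced in most subunits. *Rfc3* had 1319 and 420 reads, a log2 ratio of -1.47, and was the loader subunit with the lowest ratio. *Rfc2* had 1506 and 1238 reads, a ratio of 0.928 (0.860 to 1.00), the smallest difference among all members. The large subunit *Rfc1* had 3050 and 1776 reads (log2 ratio -0.61), *Rfc4* 594 and 364 reads (log2 ratio -0.53) and *Rfc5* 1440 and 719 reads (log2 ratio -0.83). *Rfc2*, *Rfc4* and *Rfc5* share bases at their 3′ ends with *Lat2*, *Eif4a2* and *Wsb2* on the other strand. RPA, which coats single-stranded DNA in replication and in repair, had no subunit at least 2-fold lower. *Rpa1* had 2326 and 1471 reads, *Rpa2* 4029 and 2057 reads and *Rpa3* 102 and 62 reads, with log2 ratios of -0.49, -0.80 and -0.54.

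The enzymes that finish lagging-strand fragments parted widely. *Fen1* (chr19:10199132-10204169, minus strand), the nuclease that trims the flap of each fragment, had 2466 reads in control and 424 in RV-Cre, a ratio of 0.194 (0.175 to 0.215), the lowest log2 ratio of all members (-2.36). *Lig1*, the ligase that seals the nick afterwards, had 13033 and 6604 reads, a log2 ratio of -0.81. An antisense gene, *Gm10143*, covers 943 bases of the last 1 kb of *Fen1*. Chromatin is rebuilt behind the fork by CAF-1, in which *Chaf1a* had 1430 and 514 reads (log2 ratio -1.30) and *Chaf1b* 443 and 221 reads (log2 ratio -0.83). *Chaf1a* shares 943 bases of its last 1 kb with *Ubxn6*, which had more reads in RV-Cre (361 and 549 reads). *Slbp*, which binds the stem-loop of histone mRNAs in S phase, had 1418 and 438 reads, a log2 ratio of -1.52.

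Genes for fork stability were the role group in which every gene was at least 2-fold lower, 4 of 4, with a median log2 ratio of -1.49. The share was 52.8% of all members and 12.3% of all genes past the minimum. Scaled to *Gapdh*, *Wdhd1* (log2 ratio -0.84) and *Timeless* (-0.95) were within 2-fold, and *Clspn* (-1.26) and *Tipin* (-1.19) were not. *Clspn* (claspin), which passes the replication stress signal from ATR to CHK1, had 1908 reads in control and 529 in RV-Cre, a log2 ratio of -1.67. *Tipin* had 3418 and 992 reads, a log2 ratio of -1.61. Its partner *Timeless* had 2024 and 696 reads, a log2 ratio of -1.36, and these proteins travel with the fork as a pair. *Wdhd1*, which links the helicase to polymerase alpha, had 1026 and 380 reads, a log2 ratio of -1.26. The counting intervals of *Tipin* and *Timeless* did not overlap, although their ratios differed by a factor of only 1.18.

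Among the regulators that open S phase, the E2F activators *E2f1* and *E2f2* were less reduced than the atypical E2F. *E2f1* had 1214 reads in control and 646 in RV-Cre, a log2 ratio of -0.73, and *E2f2* had 1487 and 848 reads, a log2 ratio of -0.64. *E2f3*, an activator that is not a member, had 464 and 188 reads, a log2 ratio of -1.13. *E2f8*, a repressor that is itself an E2F target, had 349 and 60 reads, a ratio of 0.194 (0.145 to 0.256). The interval of *E2f8* lay below those of *E2f1* and *E2f2*. Cyclin E, the partner of Cdk2 at the G1/S transition, is encoded by a pair of genes. *Ccne1* had 1106 and 439 reads, a log2 ratio of -1.16. *Ccne2* had 2145 and 562 reads, a log2 ratio of -1.76, and shares 474 bases of its last 1 kb with *Ints8* (833 and 286 reads).

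Most pairs of members had counting intervals that did not overlap, within a complex and outside it. The level in control and the log2 ratio had almost no correlation across the 53 genes (Pearson's r 0.00782, Spearman's rho 0.02, a description across genes, which are not independent and share both libraries). In the order of the ratios, each of the 52 neighbouring pairs had overlapping counting intervals, so that ranks next to each other are not resolved. In 11 complexes with 36 of the members as subunits, 40 of the 50 pairs within a complex (80.0%) had intervals that did not overlap. Over all 1378 pairs of members the share was 71.2% (981 pairs), and over the pairs not within a complex it was 70.9%. The difference between these shares was not tested. The share over pairs of all genes was not computed, so these shares cannot be called a trait of the members. Among member subunits, the highest ratio was 2.85 times the lowest in GINS, 2.61 times in the 3 ORC members, 2.58 times in RFC and 2.49 times in polymerase alpha-primase. It was 1.24 times in RPA. Subunits that are not members, such as *Orc5* (ratio 1.20) and *Pole4* (0.907), were left out of these pairs and spreads. With them the spread would be wider in ORC and in polymerase epsilon. The complexes were listed after the values were seen. A shift in the 3′ end used by a gene would also move its tag count, and this was not tested.

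**Figure D3:**
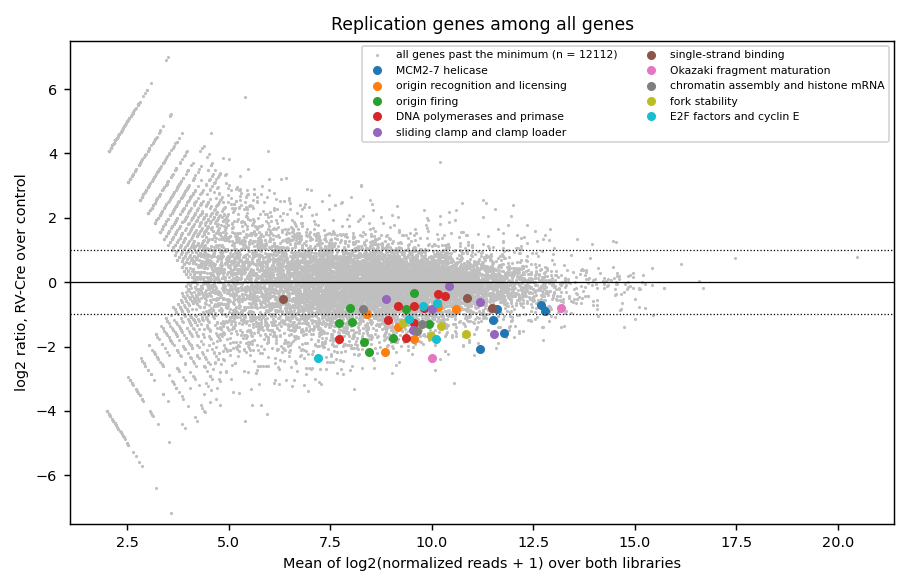
Mean log2 level (x axis) and log2 ratio, RV-Cre over control (y axis), of 12112 genes past the minimum (grey) and of the 53 replication genes (coloured by role). The dotted lines mark 2-fold, and 28 members lie below the lower line and 0 above the upper line.

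E2F letters in the promoter window did not mark the members that were lowest. The 16 members with the letters had a median log2 ratio of -0.83, with 5 at least 2-fold lower, and the 27 members without them had a median of -1.25, with 16 at least 2-fold lower. Over all genes past the minimum with a window the order was the other way, 439 genes with the letters having a median of -0.32 (18.9% at least 2-fold lower) and 8715 genes without them a median of 0.02 (11.3%). The 3 lowest members, *Fen1*, *E2f8* and *Cdc45*, had a window without a match. Among the members with a match, the log2 ratio ran from -1.77 in *Cdc6* to -0.36 in *Pold1*. A match, or the lack of one, is a description of letters in this window and says nothing of E2F binding in these cells. The CCAAT box, read by the factor NF-Y, was in the windows of 26 of the 43 members (60.5%) against 43.3% of genes past the minimum. The letters TTTGAA or TTCGAA, the cell cycle homology region of late cell cycle promoters, were in 11 of 43 windows (25.6%) against 16.5%. In a list of 35 mitosis genes, 30 with a window, the cell cycle homology letters were in 23 of 30 (76.7%) and the E2F letters in 1 of 30 (3.33%). Of the 13 nucleotide supply genes with a window, 0 held the E2F letters.

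**Figure D4:**
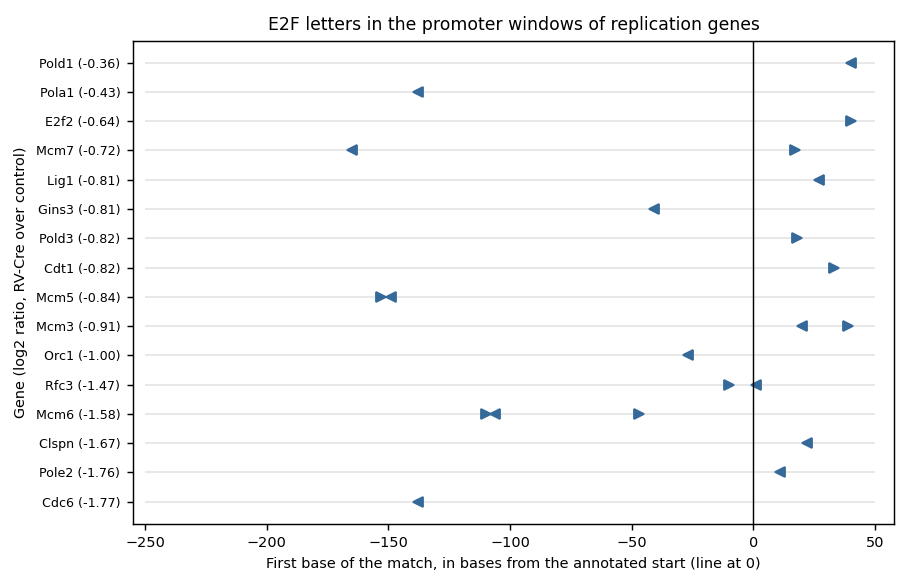
First base of each match to the E2F letters, in bases from the annotated start (x axis), in the 16 members that hold 1 or more (right arrows, strand of the gene, and left arrows, the other strand), ordered by log2 ratio. Matches lie from 165 bases before the start in *Mcm7* to 40 bases after it in *E2f2* and *Pold1*.

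Other genes of DNA replication, a list of 36 of which 35 passed the minimum, were lower by less. Their median log2 ratio was -0.63, with 13 at least 2-fold lower (37.1%), and 1 gene was higher by that much. The lowest were *Dscc1*, a clamp loader subunit for cohesion (255 reads in control and 46 in RV-Cre, log2 ratio -2.27), and *Dna2*, a nuclease of long flaps (299 and 60 reads, log2 ratio -2.13). The highest were *Mcm9*, which acts in repair and not in the replicative ring (39 and 74 reads, log2 ratio 1.08), and *Chtf8*, a clamp loader subunit like *Dscc1* (2036 and 2419 reads, log2 ratio 0.42). *Pold4* had 0 reads in both libraries.

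The members' median of -1.17 was also set beside those of neighbouring steps of the cell cycle. The 14 genes of nucleotide supply had a median log2 ratio of -1.25. Of these, 9 (64.3%) were at least 2-fold lower, against 12.3% of all genes past the minimum, and 1 was higher by that much. Their lowest genes were *Rrm2* (2863 and 480 reads, log2 ratio -2.40) and *Tyms* (1129 and 294 reads, log2 ratio -1.76), which make deoxynucleotides. Their highest were *Samhd1*, which breaks down deoxynucleotides (4177 and 9019 reads, log2 ratio 1.28), and *Cad*, which starts pyrimidine synthesis (2491 and 2066 reads, log2 ratio -0.10). The mitosis genes had a median of -1.86, with 33 of 35 at least 2-fold lower (94.3%). *Anln*, a protein of the cleavage furrow (118 and 9 reads, log2 ratio -3.41) and *Aurkb*, the Aurora B kinase (425 and 35 reads, log2 ratio -3.39) were the lowest of them, and *Pttg1*, which encodes securin (779 and 1135 reads, log2 ratio 0.72) and *Incenp*, a partner of Aurora B (1565 and 787 reads, log2 ratio -0.82) the highest. With 1 library per condition, the difference between these lists was not tested.

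**Figure D5:**
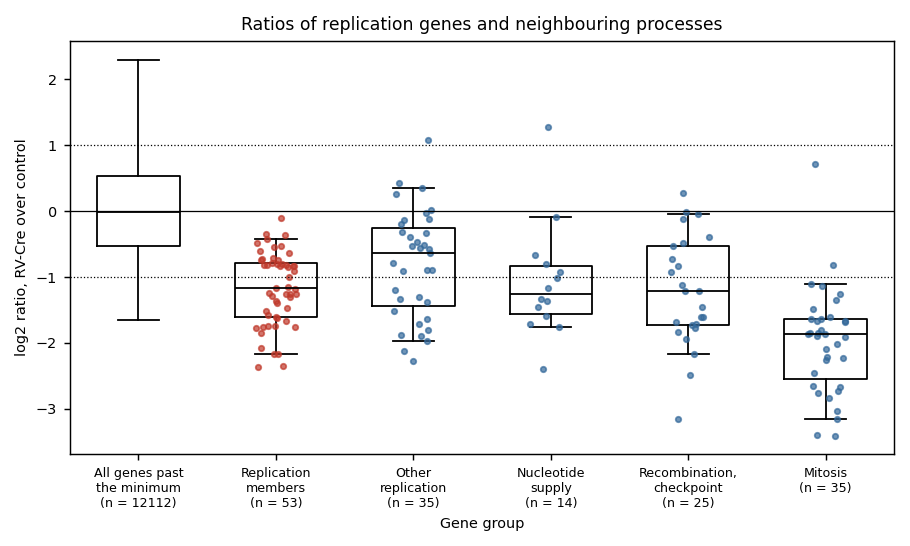
Log2 ratio, RV-Cre over control, for all genes past the minimum and for each gene list (points are genes, boxes the median and quartiles, whiskers the 5th to 95th percentile). The medians are -0.01 for all genes, -1.17 for the replication members, -0.63 for other replication genes, -1.25 for nucleotide supply, -1.21 for recombination and checkpoint genes and -1.86 for mitosis.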

How the data were processed

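Each condition had 1 QuantSeq library. Reads had been assigned to gene symbols by the authors, who deposited them as raw counts without scaling. The submitters' processing notes name bcl2fastq 2.20.0.422, Bowtie2, bedtools and the build mm10, and the strand setting of the counting is not given in the sources used here. Of the 23282 rows, 79 share a symbol with another row, none of them a member. Counts were scaled on the whole table by TMM, computed in edgeR 4.0.16 (R 4.3.3, size factors 1.06 and 0.941). No test across genes was run. A gene passed the minimum at log2(normalized count + 1) of at least 4 in at least 1 library, and was counted as lower or higher at a ratio of at least 2 on that scale. Intervals came from scipy 1.17.1 and rest on the split of reads between 1 library per condition, so that they cover counting error only. No tool that collapses reads by molecular identifiers is among those named above. The procedure was tested on simulated data. The members and gene lists were chosen with earlier results of these data known. The text names every member, *Ptk2*, and the lowest and highest pair of genes of each list. Also named are *Orc3*, *Orc4*, *Orc5*, *Pole3*, *Pole4* and *E2f3*, chosen after the values were seen. Intervals are printed for the 3 most extreme members at each end, those near the 2-fold threshold and *Mcm2* to *Mcm7*, and promoter stretches for the *Mcm* ring and the 3 lowest members where a match was found, plus *Cdc6*. An erythroid marker is not reported here. *Pclaf* was matched by its older symbol 2810417H13Rik. Gene overlaps came from GENCODE M21, and promoter windows from RefSeq on GRCm38.p6. The members with no window in that table are *Mcm4*, *Gmnn*, *Gins1*, *Gins2*, *Gins4*, *Prim2*, *Pole*, *Rfc2*, *Tipin* and *Ccne2*. Alternatives were other minimums, fold thresholds and pseudocounts, library totals with and without *Rn45s*, DESeq2 1.42.0 size factors, median centring and *Gapdh* scaling.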

Additional observations from a re-analysis of the deposited data

How the results depend on the processing

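No paired analysis was possible because the arms hold a lone library each, and for that reason no replicate was left out. The count of members at least 2-fold lower was 28 and depended on the fold threshold, with 46 at 1.5-fold and 14 at 3-fold. Of all genes past the minimum, 12.3% were lower at 2-fold, 22.9% at 1.5-fold and 5.52% at 3-fold. The count for the other replication genes, 13, became 8 at 3-fold. No alternative gave a member at least 2-fold higher, and expression minimums removed no member. Scaling to *Gapdh*, which itself had a log2 ratio of -0.42, moved the median of all genes to 0.43 and their counts to 780 lower and 2960 higher, from 1491 lower and 1720 higher. With it, 17 members and 6.40% of all genes past the minimum were at least 2-fold lower. The median log2 ratio was then -0.75 for the members and -0.21 for the other replication genes, and *Gins4* and *Pold1* turned to 0.069 and 0.055. Relative to all genes the median of the members was then -1.18, against -1.16 with TMM. Library totals without *Rn45s* moved 9 members beyond their counting interval, all of them toward 0, and no member changed direction. Library totals, DESeq2 size factors, median centring and pseudocounts of 0.1 and 10 left all 53 log2 ratios within their counting intervals. With TTCCCGCC added to the E2F letters, 20 in place of 16 members held a match. Depth limits *Rpa3* most, with 102 and 62 reads.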

Other observations

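Genes of recombination and the damage checkpoint, which act at stalled or broken forks, had a median log2 ratio of -1.21. Of 25 genes, 15 (60%) were at least 2-fold lower in RV-Cre, against 12.3% of all genes past the minimum, and 0 were higher by that much. The lowest were *Fancd2*, a core protein of the Fanconi pathway, with 169 reads in control and 16 in RV-Cre (log2 ratio -3.15), and *Rad54l* with 1477 and 232 reads (log2 ratio -2.49). The highest were the kinase *Atm* with 1331 and 1425 reads (log2 ratio 0.27) and *Mre11a* with 634 and 555 reads (log2 ratio -0.02).

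Among 10 further E2F and pocket protein genes, the median log2 ratio was -0.86. At least 2-fold lower were 5 (50%), against 12.3% of all genes past the minimum, and 0 were higher by that much. *E2f7*, the other atypical E2F, had 353 reads in control and 47 in RV-Cre, a log2 ratio of -2.71, and lay beside *E2f8* at -2.35. *E2f6*, a repressor, had 547 and 145 reads, a log2 ratio of -1.73. The highest were *E2f5*, with 1002 and 1358 reads (log2 ratio 0.61), and *Rbl2*, which encodes the pocket protein p130 of resting cells, with 499 and 553 reads (log2 ratio 0.32).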
